A study of Mus musculus with 8 samples.

Results

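Primordial germ cells (PGCs) are the embryonic founders of eggs and sperm, and 8 genes that specify, maintain or mark them in the mouse were followed here: Prdm1, Prdm14, Tfap2c, Nanos3, Dnd1, Ifitm1, Ifitm3 and Kit. They were taken by name from a gene expression table of 18094 genes, and all 8 were found in it. The table held 8 RNA-seq libraries, 2 for each of 4 groups: wild-type (WT) and CTCF-K20R mouse embryonic stem cells (mESCs) on day 0, and WT and CTCF-K20R embryoid bodies (EBs) on day 4 after differentiation. All the cells derived from the mESC line E14Tg2A, and the CTCF-K20R cells carried, after CRISPR/Cas9 editing, arginine in place of lysine 20 of CTCF, a DNA-binding protein that shapes chromosome loops. The mESCs were kept in serum on feeder fibroblasts inactivated with mitomycin C, with LIF and the 2i inhibitors CHIR99021 and PD0325901, and EBs were grown as hanging drops in serum without LIF, with no step that selects germ cells. How many edited clones the libraries came from is not given in the sources used here, so that the genotype and differences between clones or cultures cannot be told apart.

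In the mouse embryo, BMP and WNT signals from the tissues around the epiblast switch on Prdm1, Prdm14 and Tfap2c in a small group of epiblast cells. The proteins of these genes repress somatic genes, restore parts of the pluripotency network and open the way to the erasure of DNA methylation. Several of the genes are used outside the germline as well: Prdm14 and Tfap2c are active in naive mESCs, Prdm1 in endoderm, Ifitm1 in nascent mesoderm and Kit in mESCs and blood progenitors. The level of such a gene in whole EBs is therefore no measure of PGCs.

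The values were DESeq2-normalized counts, summing to between 19412659 and 21311513 per library, with 3 reads worth 2.43 to 3.43 normalized counts. The difference between the 2 WT libraries of each day was smaller than sampling noise, and each such pair was counted as 1 sample, so that the errors below come from the CTCF-K20R pairs and the fit held 6 samples. The study describes the RNA-seq experiments of each sample as independent and the libraries as biological replicates. It does not say whether they came from separate cultures or clones, so the p-values measure the spread between these samples, which may be technical. Ctcf itself had 3955 normalized counts in WT and 4509 in CTCF-K20R mESCs, and 4249 and 4849 in the EBs, but RNA levels do not check a point mutation. In bulk samples such as these, fewer cells of a type and less RNA per cell cannot be told apart.

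On day 4, 4 of the 7 PGC regulators with enough counts to be tested were lower in CTCF-K20R than in WT EBs (Prdm1, Tfap2c, Ifitm1 and Kit) and none was higher, where a call needs a log2 fold change beyond 1 in size as well as an adjusted p under 0.05 (limma with Benjamini-Hochberg adjustment over 15767 genes). By the same rule 8.65% of all genes tested were lower and 6.89% were higher. On day 0, Ifitm3 was the only one of the 7 called lower and none was called higher, with 2.60% of all genes lower and 1.19% higher. The median log2 fold change over the 7 genes was -1.03 on day 4 and -0.16 on day 0, against 0.01 and -0.01 over all genes tested.

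**Figure D1:**
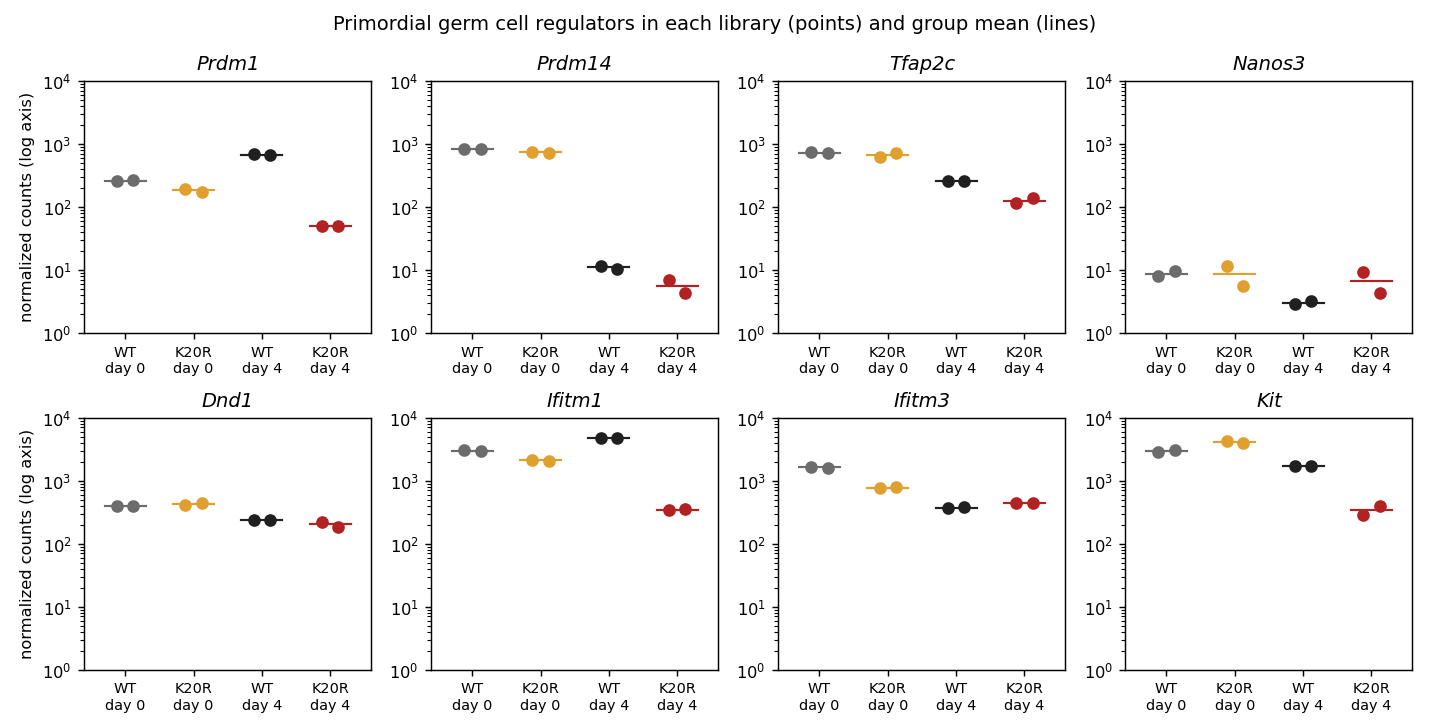
Normalized counts (log axis) of the 8 PGC regulators in each library (points) and the mean of each group (lines), for WT and CTCF-K20R (K20R) cells on day 0 and day 4. Prdm1 and Ifitm1 were higher in WT EBs than in WT mESCs and lowest in CTCF-K20R EBs, while Ifitm3 was below WT in CTCF-K20R mESCs and slightly above it in CTCF-K20R EBs.

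Prdm1 (ENSMUSG00000038151) encodes the transcriptional repressor BLIMP1, which silences somatic genes in early PGCs and also acts in endoderm. It lies on the minus strand of chromosome 10 of GRCm38, from 44437177 to 44528501. In WT cells Prdm1 measured 256 and 265 normalized counts in the mESC libraries and 685 and 659 in the EB libraries. In CTCF-K20R cells it measured 195 and 172 normalized counts on day 0 and 49.2 and 50.7 on day 4. The WT cells thus had more Prdm1 RNA on day 4 than on day 0 and the CTCF-K20R cells less. CTCF-K20R EBs had 13.5-fold less Prdm1 RNA than WT EBs (log2 fold change -3.72 ± 0.185 SE, limma adjusted p = 0.000136), whereas the difference on day 0 did not pass the test (log2 fold change -0.50 ± 0.185 SE, limma adjusted p = 0.133).

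Ifitm1 (ENSMUSG00000025491), also called Fragilis2, encodes a small membrane protein of the interferon-induced family and is a surface marker of cells around and within the PGC cluster. It lies on the plus strand of chromosome 7, from 140967221 to 140969825. In WT cells Ifitm1 measured 3020 and 2993 normalized counts on day 0 and 4734 and 4814 on day 4. In CTCF-K20R cells it measured 2121 and 2077 normalized counts on day 0 and 339 and 351 on day 4. The pattern had the shape of that of Prdm1, with a higher level in WT EBs than in WT mESCs and a lower one in CTCF-K20R EBs than in CTCF-K20R mESCs. On day 4 Ifitm1 was 13.8-fold lower in the CTCF-K20R EBs (log2 fold change -3.79 ± 0.0620 SE, limma adjusted p = 1.02e-05). In mESCs the gap was 1.43-fold and passed the test on its p (log2 fold change -0.52 ± 0.0620 SE, limma adjusted p = 0.00694), but not the minimum fold change. On p alone 7.57% of all genes tested were lower on day 0.

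Kit (ENSMUSG00000005672) encodes the receptor tyrosine kinase on which PGCs depend for survival and migration. It lies on the plus strand of chromosome 5, from 75574916 to 75656722. Kit measured 2855 and 3128 normalized counts in WT mESCs and 4221 and 3939 in CTCF-K20R mESCs. In EBs it measured 1687 and 1702 normalized counts in WT and 284 and 390 in CTCF-K20R libraries. On day 0 both CTCF-K20R libraries were thus above both WT libraries, and on day 4 both were below. The difference on day 4 was 5.03-fold (log2 fold change -2.34 ± 0.183 SE, limma adjusted p = 0.000512), and that on day 0 did not pass the test (log2 fold change 0.45 ± 0.183 SE, limma adjusted p = 0.166).

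The promoter-proximal sequences of these genes are shown because Prdm1, Ifitm1 and Kit were lower together on day 4, and because Ifitm1 moved apart from its neighbour Ifitm3. They run from 150 bases before to 30 bases after the RefSeq start site in GRCm38.p6, on the strand of the gene. Kit had 2 promoter entries, of which only the first was read. The windows of Prdm1, Ifitm1 and Nanos3 lie inside the annotated spans of these genes. The sequence before their outermost annotated starts was therefore not read. Prdm1 spans chr10:44458719-44458898 (minus strand), Kit chr5:75574837-75575016 (plus), Ifitm1 chr7:140967926-140968105 (plus), Ifitm3 chr7:141010715-141010894 (minus) and Ifitm2 chr7:140955932-140956111 (minus). Capitals mark matches, on either strand, to GAAANNGAA, the core of the interferon-stimulated response element (ISRE), or to GCCNNNGGC, the site of TFAP2 proteins.
Prdm1: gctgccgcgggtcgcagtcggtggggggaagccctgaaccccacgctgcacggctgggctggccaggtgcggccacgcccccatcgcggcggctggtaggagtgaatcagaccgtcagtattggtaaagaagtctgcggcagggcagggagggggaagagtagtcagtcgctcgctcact
Kit: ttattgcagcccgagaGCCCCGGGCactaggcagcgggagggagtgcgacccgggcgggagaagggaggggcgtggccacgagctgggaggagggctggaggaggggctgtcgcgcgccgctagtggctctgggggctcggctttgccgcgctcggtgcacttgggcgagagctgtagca
Ifitm1: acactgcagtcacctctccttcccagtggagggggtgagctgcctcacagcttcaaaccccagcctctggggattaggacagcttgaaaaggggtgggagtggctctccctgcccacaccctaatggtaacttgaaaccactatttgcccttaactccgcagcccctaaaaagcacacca
Ifitm3: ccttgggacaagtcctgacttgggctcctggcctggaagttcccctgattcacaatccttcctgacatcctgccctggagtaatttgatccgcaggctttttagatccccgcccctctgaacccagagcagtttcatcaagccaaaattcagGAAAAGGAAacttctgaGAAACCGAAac
Ifitm2: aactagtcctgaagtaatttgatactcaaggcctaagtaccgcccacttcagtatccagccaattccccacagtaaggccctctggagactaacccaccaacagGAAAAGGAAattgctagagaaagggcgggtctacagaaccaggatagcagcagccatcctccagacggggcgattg
Ifitm3 held 2 ISRE matches, whose first bases are 3 and 20 bases after the start, and Ifitm2 held 1, starting 46 bases before it. No ISRE match was found in the window of Ifitm1, which lies inside the gene and leaves its outermost annotated start unread. The ISRE core occurred in 8.56% of 32851 RefSeq promoter windows of 250 bases before to 50 bases after the start. Kit held a TFAP2 match that starts 134 bases before the start, as did Nanos3 at 221 bases before, and 16.6% of the windows held this motif. For the 5 members with a promoter entry (Prdm1, Nanos3, Ifitm1, Ifitm3 and Kit) 1 window each was read. None of these windows held GGCGCC, a SMAD1/5 motif found in 11.9% of all windows. Nor did any hold TCACACC, a T-box motif found in 3.98%, or AGGGGGC, part of the CTCF motif, found in 10.6%. These matches describe letters in a window and not binding.

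Ifitm3 (ENSMUSG00000025492), or Fragilis, is the sister gene of Ifitm1 and an early surface marker of cells competent to become PGCs. It lies on the minus strand of chromosome 7, from 141009586 to 141010770, 39.8 kb from Ifitm1. In mESCs Ifitm3 measured 1653 and 1614 normalized counts in WT and 759 and 793 in CTCF-K20R libraries. In EBs it measured 369 and 377 normalized counts in WT and 441 and 440 in CTCF-K20R libraries. Ifitm3 was thus below WT in both CTCF-K20R mESC libraries and slightly above WT in both CTCF-K20R EB libraries. The day 0 difference was 2.10-fold (log2 fold change -1.07 ± 0.0858 SE, limma adjusted p = 0.00237), and that on day 4 did not pass the test (log2 fold change 0.24 ± 0.0858 SE, limma adjusted p = 0.0763). The day 0 call lay just past the minimum fold change, and without CTCF-K20R EB replicate 1 or 2, each of which enters the shared estimate of the spread, its adjusted p was 0.0593 and 0.0596.

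The 2 genes share a cluster on chromosome 7 with Ifitm2 and Ifitm5, and the same reading was made for every tested gene within 100 kb of the pair. Ifitm2, which lies on the other side of Ifitm1, had a mean of 3230 normalized counts in WT EBs and 2219 in CTCF-K20R EBs, a difference past the p threshold but not the fold threshold (log2 fold change -0.54 ± 0.0436 SE, limma adjusted p = 0.000559). Its reads are less certain, since 44.5% of its 31-base words occur in no other gene, against 88.4% for Ifitm1 and 79.5% for Ifitm3. Ifitm5, which acts in bone, was low throughout, at group means between 12.9 and 24.8 normalized counts. B4galnt4, beyond Ifitm3, was called lower on day 4 (log2 fold change -1.02 ± 0.0956 SE, limma adjusted p = 0.000913), and Ano9 was called higher (log2 fold change 1.94 ± 0.121 SE, limma adjusted p = 0.000245). Ifitm1 was thus the only one of the 4 Ifitm genes measured in the cluster that was called on day 4, and the paralog Ifitm6 had no values. Over the 40 tested genes around Ifitm1 the log2 fold change had a median of 0.01 on day 4 and -0.12 on day 0.

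**Figure D2:**
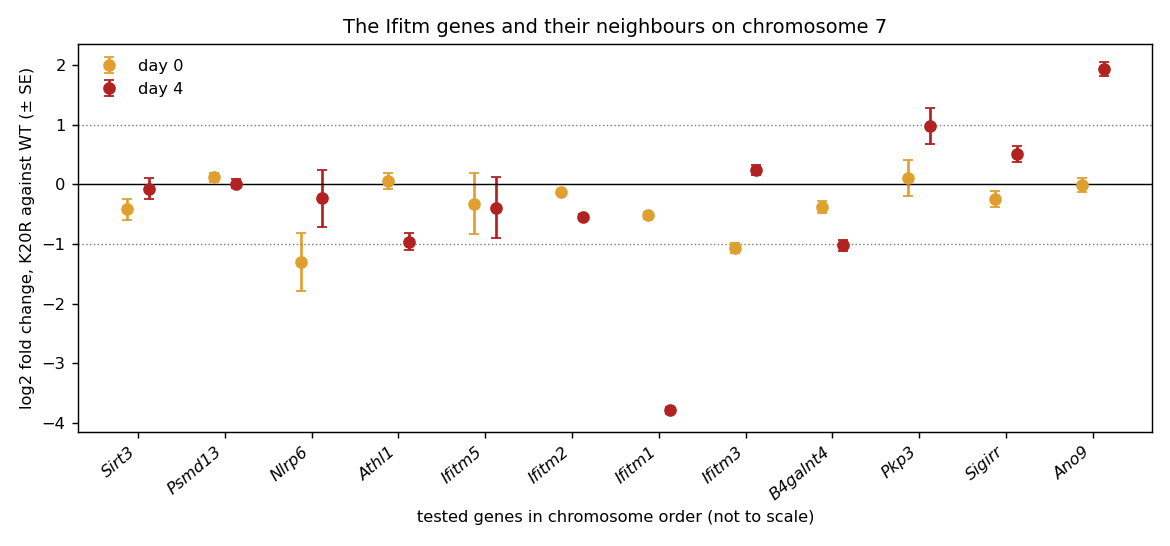
Log2 fold change (± SE) of CTCF-K20R against WT on day 0 and day 4 for the tested genes within 100 kb of the Ifitm1 and Ifitm3 pair, in chromosome order. Dotted lines mark the minimum log2 fold change of a call. Ifitm1 on day 4 stood at -3.79, with Ifitm2 at -0.54 and Ifitm3 at 0.24 on its sides.

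Prdm14 (ENSMUSG00000042414) encodes a zinc finger protein that supports naive pluripotency and is needed for PGC specification. It lies on the minus strand of chromosome 1, from 13113457 to 13127163. Prdm14 measured 828 and 822 normalized counts in WT and 747 and 724 in CTCF-K20R mESCs. In EBs it measured 11.5 and 10.5 normalized counts in WT and 6.86 and 4.37 in CTCF-K20R libraries. The gene was therefore close to the limit of detection in EBs of both genotypes. Neither genotype difference passed the test (log2 fold change -0.89 ± 0.313 SE on day 4, limma adjusted p = 0.0728, and -0.16 ± 0.313 SE on day 0, limma adjusted p = 0.760).

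Tfap2c (ENSMUSG00000028640) encodes the transcription factor AP-2γ, which acts with BLIMP1 and PRDM14 in PGCs and is also found in naive mESCs and in trophoblast. It lies on the plus strand of chromosome 2, from 172549593 to 172558622. The mESC libraries of the genotypes overlapped, at 740 and 721 normalized counts in WT and 626 and 732 in CTCF-K20R. In EBs Tfap2c measured 259 and 256 normalized counts in WT and 114 and 138 in CTCF-K20R libraries. The day 4 difference was 2.05-fold and called (log2 fold change -1.03 ± 0.175 SE, limma adjusted p = 0.00700), and no difference was detected on day 0 (log2 fold change -0.11 ± 0.175 SE, limma adjusted p = 0.713). This call sits at the fold threshold: without CTCF-K20R EB replicate 1 the log2 fold change on day 4 was -0.90 (limma adjusted p = 0.0616), and after quantile normalization it was -0.91.

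Dnd1 and Nanos3 encode RNA-binding proteins that protect PGCs after specification. Dnd1 (ENSMUSG00000044595, chromosome 18, minus strand, 36763671 to 36766214) measured 397 and 401 normalized counts in WT and 409 and 444 in CTCF-K20R mESCs. In EBs it measured 239 and 234 normalized counts in WT and 218 and 187 in CTCF-K20R libraries. Neither genotype difference of Dnd1 passed the test (log2 fold change -0.23 ± 0.155 SE on day 4, limma adjusted p = 0.290, and 0.10 ± 0.155 SE on day 0, limma adjusted p = 0.719). Its exons overlap those of Wdr55 on the opposite strand, and the use of strand in the counting is not given in the sources used here, so reads of the pair may not be told apart. Wdr55 measured 961 and 950 normalized counts in WT and 1190 and 1216 in CTCF-K20R mESCs, and 971 and 974 in WT and 1203 and 1171 in CTCF-K20R EBs.

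Nanos3 (ENSMUSG00000056155, chromosome 8, minus strand, 84173731 to 84185217) was under the minimum mean of 10 normalized counts and was not tested. It measured 7.95 and 9.49 normalized counts in WT and 11.7 and 5.54 in CTCF-K20R mESCs. In EBs it measured 2.87 and 3.23 normalized counts in WT, at about the worth of 3 reads, and 9.18 and 4.31 in CTCF-K20R libraries. No difference can be read at this depth. Over the 40 nearest tested genes of Nanos3 the median log2 fold change was 0.52 on day 4, with 33 above 0 and 3 called higher, and 0.54 on day 0, with 38 above 0 and 1 called higher. Around the other 7 genes the same median lay between -0.23 and 0.01 on day 4 and between -0.12 and 0.16 on day 0. Nanos3 contains Mir181c and Mir181d on its own strand, outside its exons.

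**Figure D3:**
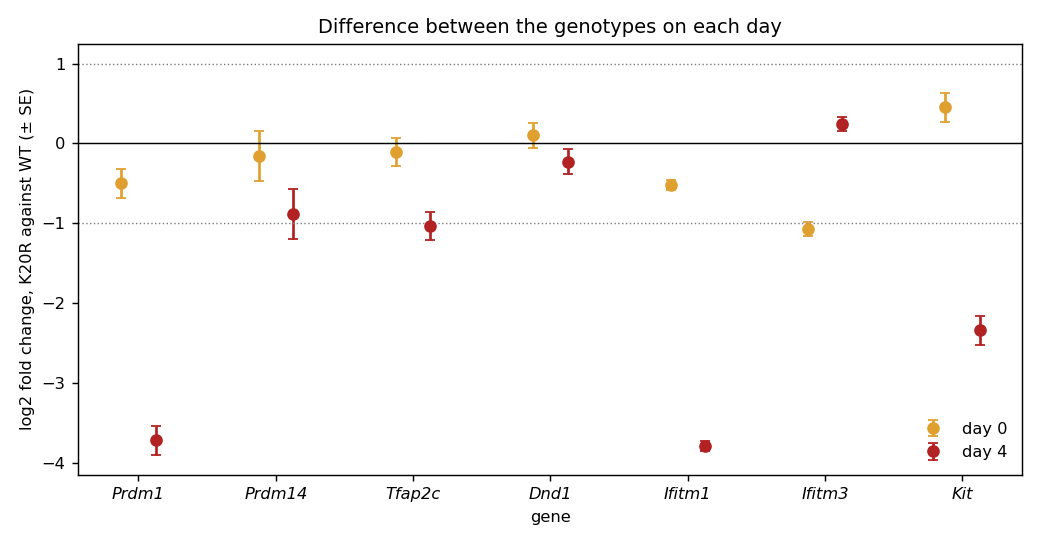
Log2 fold change (± SE) of CTCF-K20R against WT for the 7 tested PGC regulators on day 0 and day 4, from limma on log2(value + 1). Dotted lines mark the minimum log2 fold change of a call. Day 4 values ran from -3.79 for Ifitm1 to 0.24 for Ifitm3, and day 0 values from -1.07 for Ifitm3 to 0.45 for Kit.

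The genotype differences on the 2 days were then set against each other by an interaction term, the day 4 difference less the day 0 difference. Prdm1 (-3.22 ± 0.262 SE on the log2 scale, limma adjusted p = 0.00119), Ifitm1 (-3.27 ± 0.0877 SE, limma adjusted p = 9.77e-05) and Kit (-2.79 ± 0.259 SE, limma adjusted p = 0.00169) each had a lower log2 fold change on day 4 than on day 0: Prdm1 and Ifitm1 were further below WT, and Kit was above WT on day 0 and below it on day 4. The day 0 differences of Prdm1 and Kit had not passed the test. The interaction of Ifitm3 went the other way, at 1.31 ± 0.121 SE (limma adjusted p = 0.00169). These were 4 calls of 7, and 12.9% of all genes tested were called in either direction. On p alone, which 26.6% of all genes passed, Tfap2c passed as well (-0.92 ± 0.247 SE, limma adjusted p = 0.0449), and Prdm14 (limma adjusted p = 0.283) and Dnd1 (limma adjusted p = 0.327) did not pass.

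Within the CTCF-K20R cells, 6 of the 7 genes fell from day 0 to day 4 and none rose, while 11.6% of all genes tested fell and 14.5% rose. Prdm14 fell by 6.82 on the log2 scale (± 0.256 SE, limma adjusted p = 1.81e-05), with group means 131-fold apart, and Kit had group means 12.1-fold apart (limma adjusted p = 2.47e-05). The log2 fold changes were -2.60 ± 0.0506 SE for Ifitm1 (limma adjusted p = 3.32e-06), -2.42 ± 0.143 SE for Tfap2c (limma adjusted p = 7.98e-05), -1.85 ± 0.151 SE for Prdm1 (limma adjusted p = 0.000252) and -1.08 ± 0.126 SE for Dnd1 (limma adjusted p = 0.000997). The call for Dnd1 was lost without CTCF-K20R EB replicate 2, at -0.96. Ifitm3 changed by -0.82, short of the minimum fold change. In the WT cells each day is 1 sample, so the change has no replicate check: Prdm1 and Ifitm1 were higher on day 4 by 1.37 and 0.67 on the log2 scale, and Prdm14, Tfap2c, Dnd1, Ifitm3 and Kit had log2 fold changes of -6.10, -1.50, -0.75, -2.13 and -0.82. The comparisons share samples (the CTCF-K20R EBs stand in 3 of them), and so are not independent of each other.

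Levels were compared between genes per kilobase of the longest protein-coding transcript of each gene. Which transcripts the cells expressed was not tested, so close ranks may depend on this choice. In WT mESCs the order was Ifitm1 (3409 normalized counts per kb), Ifitm3 (2410), Kit (571), Prdm14 (322), Dnd1 (275), Tfap2c (245), Prdm1 (49.3) and Nanos3 (11.9), with no overlap between the library ranges of neighbours. The CTCF-K20R mESCs kept this order apart from Dnd1 (294 normalized counts per kb) and Prdm14 (287), whose libraries overlapped. In WT EBs Ifitm1 stood at 5413 normalized counts per kb, ahead of Ifitm3 at 550, Kit at 323, Dnd1 at 163, Prdm1 at 127 and Tfap2c at 86.2, with Prdm14 (4.30) and Nanos3 (4.18) overlapping at the bottom. In CTCF-K20R EBs Ifitm3 led at 650 normalized counts per kb, above Ifitm1 at 391, followed by Dnd1 (140), Kit (64.3) and Tfap2c (42.1). Prdm1 (9.45) and Nanos3 (9.24) overlapped there, and Prdm14 (2.19) was lowest. Nanos3 and, on day 4, Prdm14 were near the limit of detection, where rank means little.

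Among the 11060 genes whose mean reached 100 normalized counts, those nearest to each member in centred log2 profile over the 6 samples were found by Euclidean distance. Nearest to Prdm1 were Adam19 and Tgfb1, both at a distance of 0.71, with Tgfb1 at 1381 normalized counts in WT EBs and 71.1 in CTCF-K20R EBs. Nearest to Ifitm1 were Ackr3, a chemokine scavenger receptor, at 0.75, and Myl7, an atrial myosin light chain, at 0.76. Kit lay nearest to Zeb1 (0.56) and Gfod1 (0.64), and Prdm14 to Klf4 (0.56), a naive pluripotency factor, and H2-M5 (0.68). The nearest to Tfap2c were Tfpi and C2cd2l, at 0.36 each, and the nearest to Ifitm3 were RP24-355N14.3 and Ankrd45, at 0.21 each. Retsat (0.09) and Ppm1m (0.15) were nearest to Dnd1.

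Several signals that start PGC specification were also lower in CTCF-K20R EBs. Of 14 genes of BMP and WNT induction and their transducers, 7 were called lower on day 4 and none higher (median log2 fold change -1.26, against 0.01 over all genes). The mesodermal factor T, which WNT3 induces and which can switch on Prdm1 and Prdm14, fell from 20696 and 20904 normalized counts in WT EBs to 520 and 515 in CTCF-K20R EBs (log2 fold change -5.33 ± 0.136 SE, limma adjusted p = 2.53e-05). Eomes, a T-box factor of the posterior epiblast, fell from 9931 and 9866 normalized counts to 1845 and 1777 (log2 fold change -2.45 ± 0.0685 SE, limma adjusted p = 3.01e-05). Bmp2, a ligand of visceral endoderm, fell from 310 and 299 normalized counts to 8.04 and 5.39 (log2 fold change -5.33 ± 0.660 SE, limma adjusted p = 0.00240). The others called lower were Bmp4, Wnt3, Smad1 and Smad5, at log2 fold changes between -2.54 and -1.04. On day 0, T alone of the 14 was called, and it was lower. From day 0 to day 4 within the CTCF-K20R cells, 4 of the 14 were called higher and 3 lower, with 14.5% and 11.6% over all genes tested. T, Eomes and Bmp2 were among the higher, by 4.34, 2.01 and 2.39 on the log2 scale, with Bmp2 under the limit of detection on day 0. In WT cells, where the change has no replicate check, T, Eomes and Bmp2 were higher by 8.14, 4.96 and 5.43.

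Among 9 ligand, migration and surface genes, 2 were called lower and 4 higher on day 4 (median 0.59). Kitl, the ligand of KIT, measured 890 and 875 normalized counts in WT and 25.5 and 24.7 in CTCF-K20R EBs, 35.2-fold less (log2 fold change -5.08 ± 0.311 SE, limma adjusted p = 0.000233). Receptor and ligand RNA were thus both lower on day 4. Cxcr4, the receptor that guides migrating PGCs, measured 2129 and 2154 normalized counts in WT and 27.9 and 30.7 in CTCF-K20R EBs (log2 fold change -6.15 ± 0.312 SE, limma adjusted p = 0.000142). Its ligand gene Cxcl12 went the other way, from 148 and 149 normalized counts to 2519 and 2646 (log2 fold change 4.11 ± 0.157 SE, limma adjusted p = 6.77e-05); it was singled out after its value was seen. Cdh1, the adhesion molecule E-cadherin, was higher than in WT EBs by 1.25 on the log2 scale (limma adjusted p = 3.02e-05), and Itgb1 stood at -0.27, short of the minimum fold change. Fibroblast markers, of cells like the feeders, were called higher in 2 of 6 tested (Thy1 and Col3a1) and lower in 1 (Postn) on day 4. They summed to 552 to 574 normalized counts in WT and 761 to 914 in CTCF-K20R EBs, and without Thy1, which WT mESCs also held at 465 and 459, to 330 to 348 and 235 to 334. Col1a1 measured 167 and 144 normalized counts in WT and 48.9 and 84.1 in CTCF-K20R EBs, and Postn 51.9 and 51.6 against 0 in both. On day 0 the whole list summed to 528 to 539 in WT and 171 to 219 in CTCF-K20R mESCs. Without Thy1, which CTCF-K20R mESCs held at 104 and 103, it summed to 69.8 to 73.9 and 66.5 to 116. The part of fibroblasts in the Kitl values was not tested.

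The other genes of the early PGC programme, most of which are pluripotency genes, moved mainly the other way. Of 14 tested, 8 were called higher and 1 lower in CTCF-K20R EBs on day 4 (median log2 fold change 1.28). Utf1, a chromatin protein of pluripotent cells, measured 326 and 320 normalized counts in WT and 5069 and 4802 in CTCF-K20R EBs (log2 fold change 3.93 ± 0.0556 SE, limma adjusted p = 7.67e-06). Tcl1, a coactivator of AKT, was at or under the limit of detection in WT EBs and rose to 43.6 and 32.7 normalized counts in the mutant, at least 14.4-fold higher. Nanog was called higher (log2 fold change 1.66 ± 0.0447 SE, limma adjusted p = 2.82e-05), and Pou5f1, at 0.78, passed on p alone (limma adjusted p = 0.000110). The gene called lower was Klf4, at a log2 fold change of -1.48 (limma adjusted p = 0.00405). Dppa3, which protects DNA methylation of the maternal genome and is a classic PGC marker, was under the filter: it measured 2.82 and 2.38 normalized counts in WT and 16.6 and 20.4 in CTCF-K20R EBs.

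Of 11 partners of PRDM14 and PRDM1 and enzymes of chromatin, 3 were called higher and 1 lower on day 4 (median log2 fold change 0.64). Dnmt3b, Dnmt3l and Tet1, of DNA methylation and its removal, were higher, by 1.36, 2.50 and 1.43 on the log2 scale (limma adjusted p = 2.84e-05, 1.82e-05 and 0.00170). The gene called lower was Prmt5, an arginine methyltransferase that works with BLIMP1, which was lower by a like amount on both days (log2 fold change -1.18 on day 4 and -1.17 on day 0). Uhrf1, which maintains DNA methylation, did not pass the test on day 4 (log2 fold change 0.03, limma adjusted p = 0.485). Of 6 epiblast genes, a list that includes Otx2, a factor that holds back PGC entry, 2 were called higher and none lower (median log2 fold change 0.23). Pou3f1 was higher than in WT EBs by 3.54 and Sox3 by 2.75 on the log2 scale (limma adjusted p = 8.51e-05 and 0.00260), while Otx2 stood at -0.12 (limma adjusted p = 0.161) and Zic2 at -0.09 (limma adjusted p = 0.258).

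Later germ cell genes were called higher in 5 of 10 tested and lower in none (median log2 fold change 1.07). Sohlh2, a factor of differentiating germ cells, was under the limit in WT EBs and at 47.0 and 39.5 normalized counts in the mutant, which is at least 16.3-fold higher. Dazl, an RNA-binding protein of germ cells, measured 5.73 and 5.81 normalized counts in WT and 53.1 and 36.2 in CTCF-K20R EBs (log2 fold change 2.73 ± 0.301 SE, limma adjusted p = 0.00161). Both were higher still in mESCs, where WT libraries held 356 and 345 normalized counts of Sohlh2 and 219 and 217 of Dazl. CTCF-K20R mESCs held 1147 and 1265 of Sohlh2, which was called higher on day 0 too (log2 fold change 1.78, limma adjusted p = 0.00833). They held 459 and 430 of Dazl, whose day 0 difference did not pass the test (log2 fold change 1.03, limma adjusted p = 0.0785). Sycp3, of the meiotic chromosome axis, did not pass the test on day 4 (log2 fold change 0.35, limma adjusted p = 0.265).

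**Figure D4:**
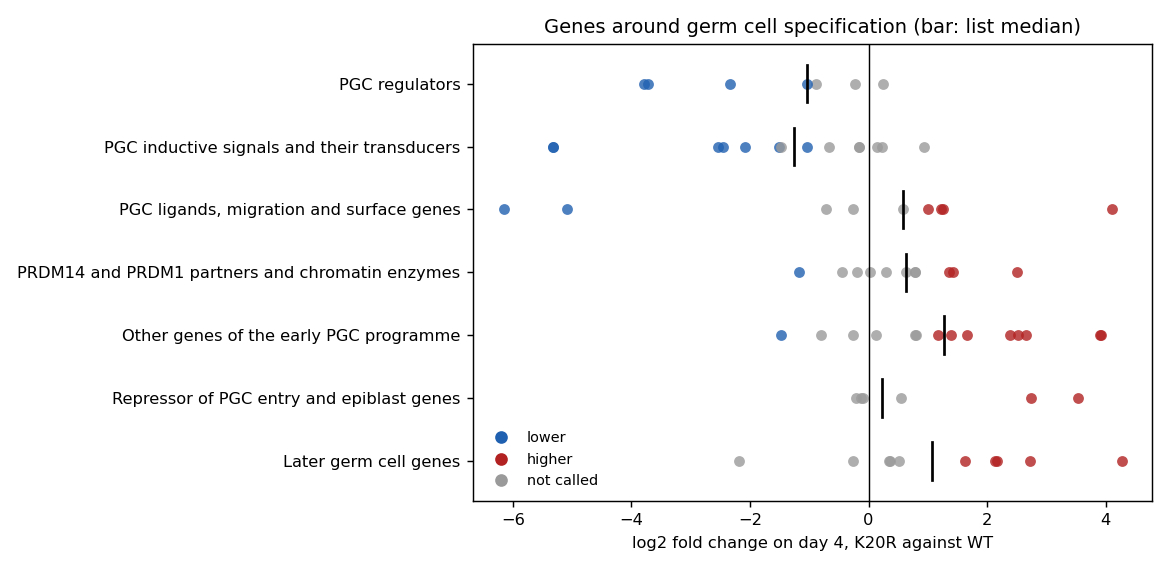
Log2 fold change on day 4, CTCF-K20R against WT EBs, of each tested gene (points) in 7 lists around germ cell specification, with the list median as a bar. Medians were -1.03 for the PGC regulators and -1.26 for the inductive signals, and 1.28 for the other early PGC genes and 1.07 for the later germ cell genes.

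Paralogs of the regulators were read in the same way. Of 3 Ifitm paralogs tested, Ifitm7 was called higher on day 4 (log2 fold change 1.41 ± 0.372 SE, limma adjusted p = 0.0307) and none was called lower. Of 11 Prdm paralogs, Prdm6 was at least 78.3-fold lower in CTCF-K20R EBs, being near 0 in these, and Prdm16 was called higher (log2 fold change 1.83 ± 0.212 SE, limma adjusted p = 0.00192), while the most abundant, Prdm2 and Prdm4, stood at -0.05 and 0.29. No call was made on day 4 for Tfap2a (log2 fold change -0.35), Tfap2e (0.23) or Nanos1 (0.33). Of 4 Kit-type receptor genes, Pdgfra, a mesoderm receptor, was called lower, from 2742 to 25.6 normalized counts on average, and none was higher, with Pdgfrb at 0.21 on the log2 scale. Of 11 interferon-stimulated genes tested, 1 was called higher on day 4 and 3 lower (median log2 fold change -0.33). Bst2 was higher by 2.31 on day 4 (limma adjusted p = 4.88e-05) and was also called higher on day 0, by 1.91 (limma adjusted p = 0.000958). On day 4 Usp18 was lower by 3.24 (limma adjusted p = 0.0128) and Stat2 stood at 0.80.

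The markers of cell types that EBs can hold also moved between the genotypes on day 4. All 10 markers of primitive streak and nascent mesoderm were called lower, and their sum was 56915 to 57250 normalized counts in WT and 2467 to 2589 in CTCF-K20R EBs, with Mesp1 and Msgn1 at or under the limit in the latter. Of 7 endoderm markers 6 were called lower and 1 higher (sums 15341 to 15363 and 248 to 319). The markers of blood and endothelial progenitors (4 of 8 lower, sums 3463 to 3482 and 402 to 493), trophoblast (5 of 8 lower, 11287 to 11338 and 2012 to 2099, or 1407 to 1421 and 235 to 254 without Eomes, which the streak list also holds) and surface ectoderm (3 of 6 lower, 10417 to 10444 and 3029 to 3112) included no gene called higher. Most of the surface ectoderm sum was Krt8 (7514 and 7504 in WT, 1091 and 969 in CTCF-K20R EBs) and Krt18 (2496 and 2535 in WT, 1839 and 1917 in CTCF-K20R EBs). Trp63 and Dlx5 of that list were at or under the limit in EBs of both genotypes, so its sum is no measure of surface ectoderm. General pluripotency markers were called higher in 5 of 8 and lower in none (39627 to 39799 and 57788 to 57843), and naive pluripotency markers were higher in 5 of 10 and lower in 2 (2163 to 2217 and 3583 to 3646). Prdm1, Ifitm1, Kit and Kitl are known to be expressed in several of these cell types, and the part of such cells in their change was not tested.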

How the data were processed

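RNA-seq of 8 libraries was analysed. Per the submitters' processing notes and the study's methods, the authors trimmed reads with Trim Galore, quantified them on mm10 transcripts with Salmon, collapsed them to genes with tximport and normalized the counts with DESeq2. The deposited values are this signal, normalized counts per gene and library. Annotation release and strand setting are not given in the sources used here. Whole reads were not recovered (63.8% of 10327 low values lay within 0.1 of a whole read), so a test for normalized values was used.

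Genes with a mean of at least 10 were tested with limma 3.58.1 (R 4.3.3) after the transformation log2(value + 1), with 4 group means and a trend of variance on mean (residual degrees of freedom 2, prior 3.51, two-sided, Benjamini-Hochberg adjustment). A fold change on this scale understates the change of low genes. The squared difference between the WT libraries of a day was on average 0.305 (day 0) and 0.276 (day 4) times the sampling noise, against 3.88 and 4.26 for CTCF-K20R, so WT pairs were averaged. The fit was run on simulated data with large changes only and with WT pairs drawn from a shared pool, as the fit assumes. That run does not cover calls near the fold threshold or differences between clones. The limit of detection was set at 3 reads, and folds against a group at or under it are lower bounds. Positions come from GENCODE vM21 (GRCm38), which held 15664 of the 15767 genes tested. RefSeq (GRCm38.p6) promoters were found for 5 of the 8 members, and Prdm14, Tfap2c and Dnd1 had none. Python 3.11.15, pandas 2.3.3 and matplotlib 3.10.9 made the counts of lists and motifs and the plots.

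The members and lists were chosen with earlier results of these data known. Genes named are all members, Ctcf, genes overlapping a member, the 2 nearest profiles, and from each list the 2 highest by mean and the 2 called with the largest change on day 4. Named outside this rule, after their values were seen, are the other genes of the Ifitm cluster, Bmp4, Wnt3, Smad1, Smad5, Cxcl12, Klf4 as a programme gene, Prmt5 and Dppa3. From the marker lists a few genes are named, after their values were seen, in place of those of the rule. Alternatives were other replicate handling, pseudocounts, filters, scalings, thresholds and samples in the fit.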

Additional observations from a re-analysis of the deposited data

Results flagged for a closer look

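For 5 of the 7 genes tested the difference between CTCF-K20R and WT cells was not the same on day 4 as on day 0 by the interaction term of limma at an adjusted p under 0.05, which 26.6% of all genes tested passed. On the log2 scale it was -3.22 for Prdm1, -3.27 for Ifitm1, -2.79 for Kit, -0.92 for Tfap2c and 1.31 for Ifitm3. Prdm1 and Ifitm1 were further below WT on day 4, and Tfap2c was below WT on day 4 with overlapping libraries on day 0. Kit was above WT on day 0 and below it on day 4, and Ifitm3 was below WT on day 0 and not on day 4. The day 0 differences of Prdm1, Tfap2c and Kit did not pass the test. With groups of 2 libraries, samples that stand apart within a group were not looked for.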

How the results depend on the processing

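The counts of called genes under alternative settings include reported counts of 0. A margin of 1.5 times passes 1 gene more or less in 3 or 4. Of 142 such counts, 139 stayed within 1.5 times the reported count. The exceptions were the genes called lower on day 0, of which 1 is reported: leaving out each library in turn gave between 0 and 1, the 0 arising without either CTCF-K20R EB library, and dropping the minimum fold change gave 2 (Ifitm1 joins Ifitm3). Of 469 log2 fold changes of single genes under alternatives, 462 kept their direction and their side of the threshold. Tfap2c on day 0 went from -0.11 to 0.00, with its sign turned, without CTCF-K20R mESC replicate 1, and over all left-out libraries it lay between -0.22 and 0.00. Calls were lost for Tfap2c on day 4 (-0.90 without CTCF-K20R EB replicate 1, -0.91 with quantile normalization), Ifitm3 on day 0 (-1.07 without CTCF-K20R EB replicate 1 or 2) and Dnd1 from day 0 to day 4 in CTCF-K20R cells (-0.96 without CTCF-K20R EB replicate 2), and the interaction of Tfap2c was called at -1.01 with equal library totals. For Ifitm3 the size did not move and fewer samples entered the fit, and for the others the cause was not tested.

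The groups share the replicate numbers 1 and 2, but libraries with the same number did not deviate together (correlations from -0.03 to 0.03), so they share only a number. With all 8 libraries as separate samples and the replicate number as a block, 4 genes were called lower and 0 higher on day 4, 1 lower and 0 higher on day 0, 3 lower and 1 higher in the interaction, and 6 lower and 0 higher from day 0 to day 4 in CTCF-K20R cells, as without the block; Prdm1 on day 4 stayed at -3.72.

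Depth limits Nanos3 in all libraries and Prdm14 in EBs, which lie close to the limit of detection. No WT difference has a replicate check.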
